A study of Arabidopsis thaliana with 12 samples.

Results

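The loci described here are the genes of the Arabidopsis thaliana mitochondrial genome that carried CLIP-seq peaks, 94 of the 123 mitochondrial loci with any peak and 94 of the 35566 loci with a peak in the series. A mitochondrial locus, written with an identifier that begins with ATMG, was kept when it had a peak in at least 4 of the 12 libraries. The loci were thus chosen by the presence of peaks in these same libraries, and the count of libraries with a peak is given below as a description only. The study crosslinked RNA to protein with UV light in 14-day-old Col-0 seedlings and sequenced short RNA fragments from 3 genotypes, each with 4 libraries. The genotypes were GFP alone, which is the control, GFP-FIB1 and CFP-FIB2. No genotype with CFP alone is among the samples, the promoter and number of transgenic lines are not given in the labels, and nothing says that the 4 libraries of a genotype came from separate cultures.

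FIB1 and FIB2 are fibrillarins, nucleolar proteins of the box C/D small nucleolar ribonucleoprotein that methylate ribosomal RNA. The plant mitochondrial genome encodes ribosomal and transfer RNAs, some ribosomal proteins, factors of cytochrome c biogenesis and a minority of the subunits of the respiratory chain and ATP synthase, while nuclear genes encode the rest. Its transcripts are made and processed inside the organelle, whereas fibrillarin is known as a nuclear protein. In Arabidopsis a large copy of the mitochondrial genome also lies in the nuclear genome, near the centromere of chromosome 2, so a short read from a mitochondrial transcript can match both places.

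Because reads of copied sequence can be listed under a nuclear name, the nuclear locus of the copy with the most reads and the 3 transfer RNA copies with the most recurring bases are shown first. The span that their peaks covered on chromosome 2 was found letter for letter in the RefSeq mitochondrial sequence. Sequences are from RefSeq TAIR10.1, 5′ to 3′ on the strand of the peaks, and capitals mark bases that peaks covered in at least 8 of the 12 libraries.
AT2G07777, chr2:3250680-3250764, minus strand: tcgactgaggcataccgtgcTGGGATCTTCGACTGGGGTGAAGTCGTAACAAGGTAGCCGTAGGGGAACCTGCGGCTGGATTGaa
AT2G07757, tRNA-Ser, chr2:3453032-3453063, plus strand: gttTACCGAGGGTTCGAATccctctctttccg
AT2G07792, tRNA-Tyr, chr2:3332705-3332760, plus strand: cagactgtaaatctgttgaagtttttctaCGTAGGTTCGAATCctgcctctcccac
AT2G07748, tRNA-Trp, chr2:3280883-3280936, plus strand: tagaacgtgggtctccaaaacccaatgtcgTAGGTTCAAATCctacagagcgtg

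The transfer RNA stretches matched the mitochondrial genes trnS(GGA), trnY(GTA) and trnW(CCA) of RefSeq, and their recurring bases, 16, 14 and 12 in number, lay near the 3′ end of the transfer RNA. Levels ranged from 5.67 to 384 RPM, which scales reads to 1000000 reads in peaks, at AT2G07757, from 9.84 to 134 RPM at AT2G07792 and from 14.8 to 244 RPM at AT2G07748. AT2G07777 is annotated as ATP synthase subunit 9, but a run of 47 bases in its peak was identical to bases 1873 to 1919 of the 1935 bases of rrn18, the mitochondrial small-subunit ribosomal RNA gene of RefSeq. The whole span of 85 bases matched the RefSeq mitochondrial sequence exactly at 1 place, with which no gene was paired. Recurring bases lay on both sides of the run shared with rrn18, so the peak as a whole was not assigned to rrn18. The same span is given again with that run in capitals.
AT2G07777, run shared with rrn18: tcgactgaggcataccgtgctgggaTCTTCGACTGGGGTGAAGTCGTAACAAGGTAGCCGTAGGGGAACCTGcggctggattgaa

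The level of AT2G07777, in RPM, was 11032, 7755, 67.0 and 315 in GFP replicates 1 to 4, 4205, 84.6, 211 and 408 in GFP-FIB1, and 7079, 57.4, 214 and 54.5 in CFP-FIB2. The libraries of set A (GFP replicates 1 and 2 and replicate 1 of both fibrillarin genotypes) were the highest and the genotypes overlapped. ATMG01090, the mitochondrial locus paired with AT2G07777 by its product, reached at most 0.798 RPM in any library.

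Reads in peaks ranged from 2858968 to 12844455 per library, which sets the depth of every value. Across nuclear protein-coding loci with a peak in all libraries, the libraries fell into 3 sets that cut across genotypes. Set A held GFP replicates 1 and 2, GFP-FIB1 replicate 1 and CFP-FIB2 replicate 1, and set B held GFP replicate 3 and replicate 2 of both fibrillarin genotypes. Set C held GFP replicate 4 and replicates 3 and 4 of both fibrillarin genotypes. Pearson correlations of log2 levels over 4491 such loci were 0.16 to 0.30 between set A and the others, 0.51 to 0.68 between sets B and C, and 0.46 to 0.87 within sets. The labels name no such sets, and what the libraries of a set share is not given. Small nucleolar RNA loci, the known partners of fibrillarin, held 0.0401% to 0.574% of the reads in the GFP libraries and 0.733% to 14.2% in the 8 fibrillarin libraries, without overlap. CFP-FIB2 replicate 4 stood apart, with 31.8% of its reads at the single nuclear locus AT1G09110, a tRNA gene in RefSeq. The green-tissue transcripts RBCS1A, RCA, LHCB1.1, LHCB1.3 and PSBO1 had peaks in all 12 libraries.

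Mitochondrial loci held a small and variable share of the reads, and no difference between genotypes exceeded the spread of their libraries. The share was 2.14%, 1.66%, 1.07% and 4.03% in GFP replicates 1 to 4, 2.18%, 1.11%, 2.81% and 4.46% in GFP-FIB1, and 0.909%, 0.698%, 2.94% and 0.976% in CFP-FIB2. All 3 genotypes overlapped, the 3 libraries of set B were at 1.11% or lower, and replicate 4 of GFP and of GFP-FIB1 were the highest of all. Means were 2.22% ± 1.28 (SD, n = 4) in GFP, 2.64% ± 1.40 in GFP-FIB1 and 1.38% ± 1.05 in CFP-FIB2, and counting error alone gave 95% Wilson intervals no wider than 0.0168 percentage points to either side. GFP-FIB1 minus GFP was 0.416 percentage points (two-sided exact permutation p = 0.629, adjusted p = 0.629 over the 3 pairs), CFP-FIB2 minus GFP was -0.841 (exact p = 0.343, adjusted 0.514) and GFP-FIB1 minus CFP-FIB2 was 1.26 (exact p = 0.229, adjusted 0.514). With 4 libraries against 4 the smallest p this test can give is 0.0286. Compared only within sets A, B and C, the differences were -0.0232, -1.14 and 1.12 percentage points, with permutation p of 1.00, 0.111 and 0.167. With 18, 18 and 24 orders to permute, these within-set tests cannot give a p under 0.05. With mitochondrial peaks between genes included, the differences were 1.63, 1.46 and 0.169 percentage points (exact p = 0.257, 0.800 and 0.943), so CFP-FIB2 minus GFP turned from negative to positive. Those peaks held 10.6% of the reads in CFP-FIB2 replicate 1, but 0.291% to 0.601% in the other CFP-FIB2 libraries. They held 0.482% to 0.948% in GFP, and 5.54% in GFP-FIB1 replicate 1. The turn thus rested on 1 CFP-FIB2 library. In whole seedlings, fewer cells of a type and less RNA per cell cannot be told apart. Chloroplast loci, for comparison, held 3.62% to 13.3% of the reads.

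**Figure D1:**
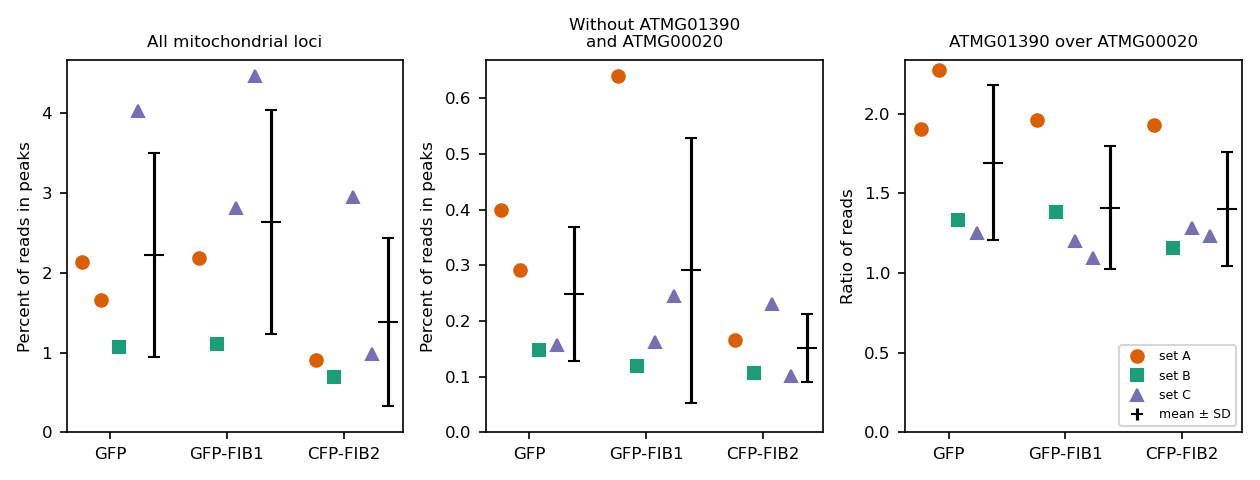
Percent of reads in peaks at all mitochondrial loci (left), at mitochondrial loci other than ATMG01390 and ATMG00020 (middle), and the ratio of reads at ATMG01390 to reads at ATMG00020 (right), for each library by genotype, with library set as colour and shape and the mean ± SD of 4 libraries in black. The genotypes overlap in all 3 plots, and the 4 libraries of set A have the highest ratios, 1.91 to 2.27.

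The breadth of the signal also overlapped between genotypes. Mitochondrial loci with a peak numbered 56, 68, 84 and 68 in GFP, 58, 83, 73 and 71 in GFP-FIB1, and 62, 85, 90 and 56 in CFP-FIB2. The mitochondrial length covered by their peaks was 3026 ± 745 nt (SD, n = 4) in GFP, 2914 ± 875 nt in GFP-FIB1 and 3076 ± 737 nt in CFP-FIB2. The 3 libraries of set B had 83 to 85 loci and 3833 to 4198 nt in each library. Reads per mitochondrial peak averaged 713 ± 728 in GFP, 856 ± 560 in GFP-FIB1 and 582 ± 425 in CFP-FIB2, and ranged from 230 to 394 in set A and from 755 to 1791 in set C. None of the 9 tests on loci, length and reads per peak passed (two-sided exact permutation adjusted p from 0.800 to 0.971). Within sets, CFP-FIB2 minus GFP was -394 reads per peak (within-set permutation p = 0.0556 over 18 orders). The other within-set permutation p-values of these measures were 0.167 or higher. Mitochondrial peaks were short, with a median length of 5 to 6 nt in set A and 10 to 13.5 nt in sets B and C. Median lengths of all peaks on the nuclear chromosomes were 8 to 11 nt in set A and 9 to 13 nt in the other sets. Unlike the mitochondrial medians, these include peaks between genes.

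Of the 94 loci, 21 had a peak in all 12 libraries, and 34 had one in all 4 GFP libraries, 35 in all 4 GFP-FIB1 libraries and 32 in all 4 CFP-FIB2 libraries. Only 3 of the 94 had no peak in any GFP library, 4 none in GFP-FIB1 and 1 none in CFP-FIB2. Just inside the rule, 12 loci had a peak in exactly 4 libraries, and their reads over all libraries ranged from 12 to 144. They were ATMG00120, ATMG00200, ATMG00290, ATMG00340, ATMG00620, ATMG00870, ATMG00980, ATMG01180, ATMG01220, ATMG01260, ATMG01370 and ATMG09750. Just outside it, 9 loci had a peak in exactly 3 libraries, with 9 to 397 reads. Those were ATMG00010, ATMG00140, ATMG00400, ATMG00470, ATMG00516, ATMG00600, ATMG00760, ATMG00910 and ATMG01240. Levels of both kinds were low, with means of at most 2.39 RPM inside and 3.69 RPM outside the rule. The peaks of 32 of the 94 loci lay on the plus strand and those of 62 on the minus strand.

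Most reads sat at 2 loci, ATMG01390 and ATMG00020, for which the sources used here give no product. RefSeq annotates the mitochondrial ribosomal RNA genes rrn5, rrn18 and rrn26 without ATMG identifiers, so no pairing was made. ATMG01390 had 11396, 9503, 5236 and 21523 RPM in GFP replicates 1 to 4, 10213, 5740, 14447 and 21995 RPM in GFP-FIB1, and 4891, 3171, 15227 and 4832 RPM in CFP-FIB2. Replicate 4 of GFP and of GFP-FIB1 were the highest, replicate 2 of CFP-FIB2 was the lowest, and the genotypes overlapped. ATMG00020 had 5979, 4178, 3933 and 17206 RPM in GFP, 5217, 4144, 12004 and 20130 RPM in GFP-FIB1, and 2533, 2742, 11898 and 3913 RPM in CFP-FIB2. It rose and fell with ATMG01390, with a Spearman correlation of 0.97 over the 12 libraries, as a description. Other loci of like pattern were ATMG09510 (0.88 with ATMG01390) and ATMG09740 (0.87), and each is scaled to the same library total. Together the 2 loci held 70.7% to 96.1% of the mitochondrial reads, lowest in GFP-FIB1 replicate 1. Per 1000 nt of covered length their mean levels were 14712 RPM at ATMG01390 and 6602 RPM at ATMG00020.

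Neither of the 2 loci passed the test between genotypes. For ATMG01390 the log2 fold change on the log2(RPM + 1) scale was 0.15 (SE 0.71) in GFP-FIB1 against GFP, -0.85 (SE 0.71) in CFP-FIB2 against GFP and 1.01 (SE 0.71) in GFP-FIB1 against CFP-FIB2. For ATMG00020 the same 3 values were 0.41, -0.60 and 1.00, each with an SE of 0.79. All 6 adjusted p-values from limma, Benjamini-Hochberg over 20204 loci, rounded to 1.00. The ratio of the 2 loci did move with the library sets. Reads at ATMG01390 were 1.91 to 2.27 times those at ATMG00020 in set A and 1.09 to 1.39 times in the other 8 libraries, and each genotype contributed to both ranges.

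Peaks within the 2 loci fell at recurring positions in every genotype. Of the 726 positions that any library covered in ATMG01390, 179 were covered in all 12, in 7 blocks. Peaks touching chrM:362237-362249 held 12.6% to 26.5% of the locus's reads and peaks touching chrM:361735-361761 held 14.0% to 38.6%. Other recurring blocks differed between the library sets. Peaks touching chrM:362203-362234 held 0.766% to 3.54% of the locus in set A, 18.1% to 23.1% in set B and 36.1% to 39.5% in set C, and a peak can touch this block and its neighbour. Peaks touching chrM:362473-362501 held 2.23% to 3.49%, 4.15% to 4.91% and 12.6% to 17.8% in the same order. The remaining 3 blocks held between 0.106% and 17.8%. The mitochondrial coordinates are those of the deposited files, whose build is not given in the sources used here and is not that of RefSeq, so no sequence is printed for them. In ATMG00020, 148 of 1185 positions were covered in all 12 libraries, in 5 blocks, of which chrM:9259-9316 was touched by peaks with 12.3% to 19.8% of its reads. The strongest ATMG01390 peak of CFP-FIB2 replicate 2 lay at the upper end of the locus, chrM:363247-363271, with 17.9% of its reads. Peaks there held 15.6% to 17.9% of the locus in set B and 0.783% to 3.88% in set C, and no library of set A had one.

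**Figure D2:**
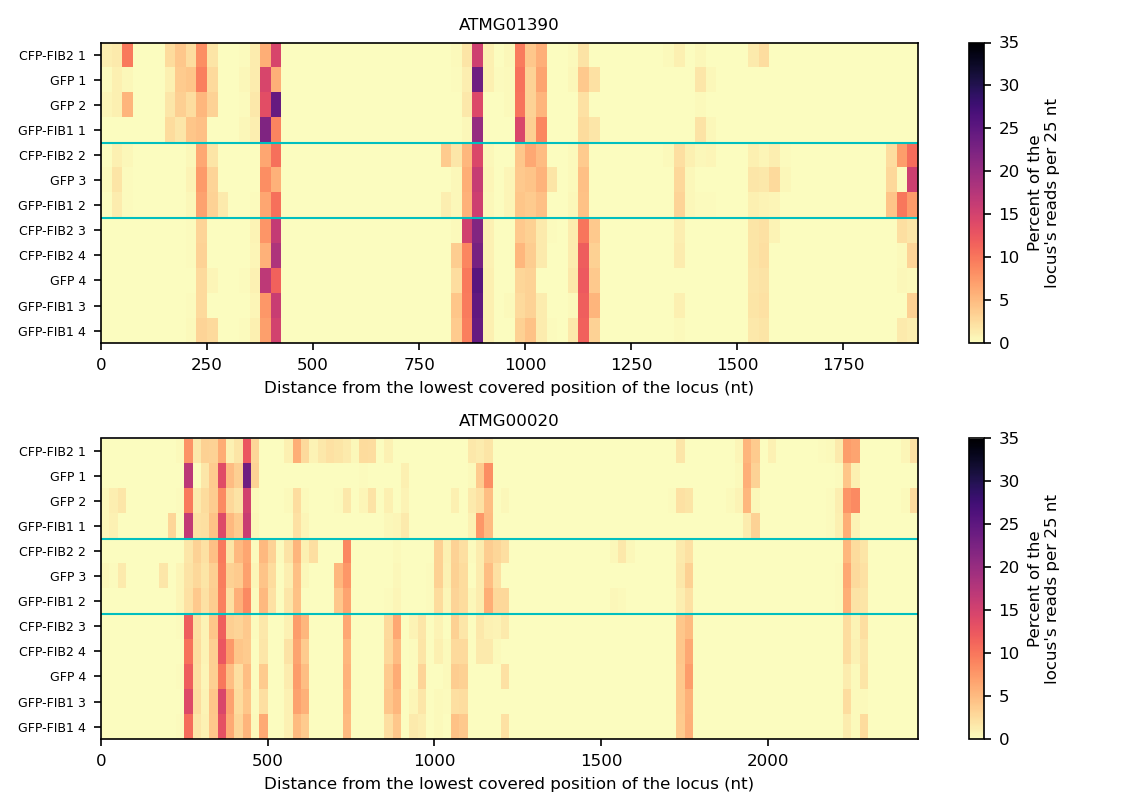
Percent of a locus's reads in each 25-nt window, by distance in nt from the lowest covered position, for ATMG01390 (top) and ATMG00020 (bottom), with 1 line of cells per library ordered by set A, B and C and sets divided by cyan lines. Both loci are read from the minus strand, so distance 0 is the 3′ side. Some windows are strong in all 12 libraries, while others differ by set. Peaks touching chrM:362203-362234 of ATMG01390, counted whole and not by window, held at most 3.54% in set A and at least 36.1% in set C.

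Levels of the remaining 92 loci summed to 1014 to 6380 RPM, or 3.87% to 29.2% of the mitochondrial reads. Of all 94 loci, with ATMG01390 and ATMG00020 included, only 8 had a mean of at least 100 RPM, 24 of at least 10 RPM and 65 of at least 1 RPM. These sums are of reads and not per length.

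At some of these loci, among them ATMG01060 and ATMG00580, set A lay apart from sets B and C while the genotypes overlapped. ATMG01060, which RefSeq notes name as the source of a nuclear pseudogene, had 1724, 1075, 354 and 77.4 RPM in GFP, 2881, 127, 131 and 207 RPM in GFP-FIB1, and 515, 133, 224 and 257 RPM in CFP-FIB2. The 4 libraries of set A were the highest. Its neighbour ATMG01070 shared 63 covered positions with it on the same strand and had 438, 313, 320.0 and 50.1 RPM in GFP, 1027, 104, 41.7 and 61.0 RPM in GFP-FIB1, and 303, 98.8, 150.5 and 216 RPM in CFP-FIB2. Reads of this overlapping pair could be assigned to either locus, and their Spearman correlation was 0.92. ATMG00580 had 949.6, 665, 3.79 and 11.2 RPM in GFP, 154, 68.1, 0.857 and 4.82 RPM in GFP-FIB1, and 383, 88.4, 3.77 and 2.34 RPM in CFP-FIB2. Again the 4 libraries of set A were the highest, and those of set C did not exceed 11.2 RPM.

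Another order was seen at ATMG00700, with 36.0, 40.2, 32.2 and 594 RPM in GFP, 53.4, 23.5, 679.7 and 1149 RPM in GFP-FIB1, and 6.76, 19.95, 735 and 182 RPM in CFP-FIB2. All 5 libraries of set C lay above the other 7. A single library dominated ATMG00100, which had 47.6, 84.4, 29.8 and 67.1 RPM in GFP, 853, 26.8, 103 and 127 RPM in GFP-FIB1, and 17.2, 5.41, 203 and 63.5 RPM in CFP-FIB2. The high library was GFP-FIB1 replicate 1, which was also the highest at ATMG00800, with 65.8, 34.5, 4.55 and 17.1 RPM in GFP, 254, 4.35, 15.7 and 13.1 RPM in GFP-FIB1, and 18.9, 3.72, 6.96 and 14.4 RPM in CFP-FIB2. The 12 libraries were closest to each other at ATMG01380, with 134, 168, 46.5 and 217 RPM in GFP, 65.3, 80.2, 249 and 144 RPM in GFP-FIB1, and 123, 41.6, 241 and 109 RPM in CFP-FIB2.

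The last 3 of those 12 loci overlapped between genotypes as well. ATMG00380 had 62.6, 19.1, 349 and 25.6 RPM in GFP, 55.1, 186, 21.6 and 168 RPM in GFP-FIB1, and 5.76, 49.4, 183 and 14.5 RPM in CFP-FIB2. ATMG09510 had 73.5, 40.2, 18.5 and 83.4 RPM in GFP, 98.7, 27.0, 49.7 and 179 RPM in GFP-FIB1, and 12.6, 13.5, 56.4 and 13.1 RPM in CFP-FIB2. ATMG00390 had 16.4, 7.96, 87.6 and 39.5 RPM in GFP, 23.8, 24.9, 53.2 and 71.2 RPM in GFP-FIB1, and 0, 37.4, 136 and 59.2 RPM in CFP-FIB2. In the first the highest library was of GFP, in the second of GFP-FIB1 and in the third of CFP-FIB2. A value of 0 means that no peak was listed, since the least number of reads of a listed peak was 3.

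**Figure D3:**
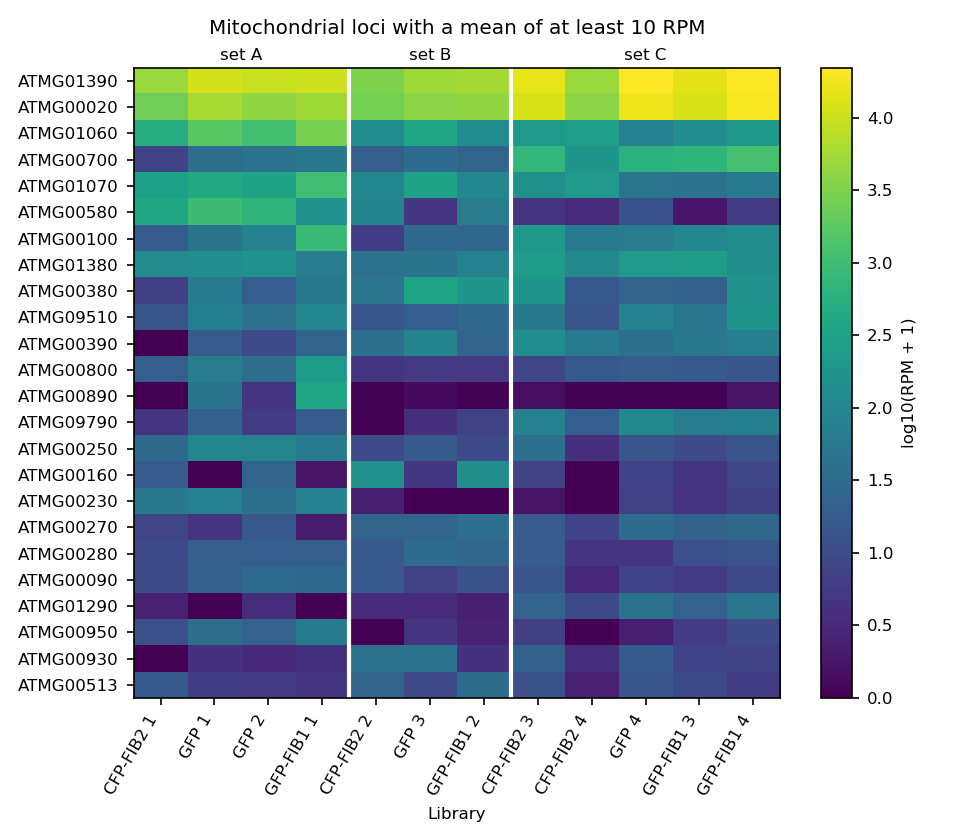
Levels of the 24 mitochondrial loci with a mean of at least 10 RPM, as log10(RPM + 1) by colour, in the 12 libraries ordered by set A, B and C. ATMG01390 and ATMG00020 are high throughout, while ATMG01060, ATMG00580 and ATMG00230 are highest in set A and ATMG00700 in set C.

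Counted over the 65 loci that passed the filter on low values, 10 lay without overlap above set B in set A and 11 lay above set C. In the other direction 8 loci of set B and 5 of set C lay above set A. Over all 20204 loci tested, set A lay above set B at 8.97% and above set C at 8.48%, and below them at 20.5% and 11%. Set B lay above set C at 2 of the 65 loci and at 7.22% of all loci, and set C above set B at 8 of the 65 and at 3.53% of all. The sets were taken from correlations over nuclear loci of these same libraries. Some separation outside the mitochondrial genome therefore follows from how they were defined, and the shares over all loci are a description only.

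Loci with a product in the sources used here carried few reads under their own identifiers. RefSeq notes on the chromosome 2 copy pair 32 of the 94 loci with a nuclear gene or pseudogene, and give 23 of them a named product. The 23 loci together held 11.99 to 105 RPM per library, or 0.0733% to 1.098% of the mitochondrial reads. The 62 loci that the notes do not pair were given no role, so counts by role are of paired loci only. Of the 23 loci, 3 were subunits of NADH dehydrogenase, complex I of the respiratory chain. ATMG01320 (subunit 2B) had 0.757 to 36.3 RPM with the highest value in GFP-FIB1 replicate 1, and ATMG01275 (subunit 1A) had peaks in 6 libraries and at most 9.30 RPM. ATMG00990 (subunit 3) had 0, 0, 2.11 and 1.07 RPM in GFP, 1.91, 7.76, 1.86 and 3.095 RPM in GFP-FIB1, and 1.88, 5.41, 0 and 0 RPM in CFP-FIB2. The GFP-FIB1 libraries of ATMG00990 overlapped with those of GFP, since 2 of the 4 lay below GFP replicate 3.

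Among paired loci, complex III, which passes electrons to cytochrome c, was represented by ATMG00220 (apocytochrome b) and ATMG00590 (cytochrome b/b6 protein). Their means were 1.16 and 1.43 RPM. For complex IV, cytochrome c oxidase, ATMG00730 (subunit 3) had 2.10, 0, 3.12 and 8.97 RPM in GFP, 0.715, 1.33, 2.43 and 0.860 RPM in GFP-FIB1, and 0, 1.15, 0.342 and 0 RPM in CFP-FIB2. ATMG01280 (COX II-like) had 1.40, 1.68, 0.843 and 1.34 RPM in GFP, 0, 3.79, 0.572 and 1.204 RPM in GFP-FIB1, and 2.38, 6.83, 2.40 and 2.88 RPM in CFP-FIB2. All CFP-FIB2 libraries of ATMG01280 lay above all GFP libraries. Its log2 fold change in that comparison was 0.91 (SE 0.61, limma adjusted p = 1.00), so it did not pass.

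The 4 paired ATP synthase loci were ATMG00480 (subunit 8), ATMG00410 (subunit 6-1), ATMG01190 (subunit 1) and ATMG01090 (subunit 9). They had means from 0.269 to 2.79 RPM, and 1 of them passed the filter. The 3 paired loci of cytochrome c biogenesis, ATMG00180, ATMG00900 and ATMG00960, had means from 1.67 to 3.62 RPM and all passed it. Of 5 paired loci for ribosomal proteins or a related fold, ATMG00560 (nucleic acid-binding OB-fold-like protein) passed, with a mean of 3.70 RPM. The highest mean among loci with a named product was at ATMG00280, annotated with the catalytic domain of the Rubisco large chain, a chloroplast enzyme. It had 19.2, 18.8, 31.6 and 3.62 RPM in GFP, 20.03, 26.2, 10.3 and 11.9 RPM in GFP-FIB1, and 8.26, 15.4, 16.7 and 3.43 RPM in CFP-FIB2, which overlapped. Per 1000 nt of covered length its mean was 158 RPM. The range was 2.15 to 23.0 RPM for the paired loci of the respiratory complexes, ATP synthase, cytochrome c biogenesis and ribosomal proteins.

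Reads were also listed at the nuclear loci paired with mitochondrial ones. For 32 of 33 pairs of a mitochondrial locus and its annotated copy the copy had a peak, and in 19 of the 33 its mean level was higher than that of the mitochondrial locus. The copies were nearly identical to the organelle, since at least 93.0% (median 99.6%) of their 25-nt words occurred in the RefSeq mitochondrial sequence. A nuclear locus can hold more than the paired gene, so a higher level there does not show reads of that gene. The AT2G07777 peak shown above, for example, shared a run of bases with rrn18. ATMG01190, ATP synthase subunit 1, had a mean of 0.665 RPM while its copy AT2G07698 had 27.4 RPM, higher in 12 of 12 libraries, and 54.3% of the 25-nt words of AT2G07698 were those of atp1. ATMG00180, a cytochrome c biogenesis locus, had 3.62 RPM and its copy AT2G07815 61.2 RPM, also in 12 of 12, while 22.0% of the words of AT2G07815 were those of ccmFC. The reverse was true of ATMG01060, at 642 RPM with no peak listed at its copy AT2G07807. Reads from the organelle and from the nuclear copy cannot be told apart in these files.

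**Figure D4:**
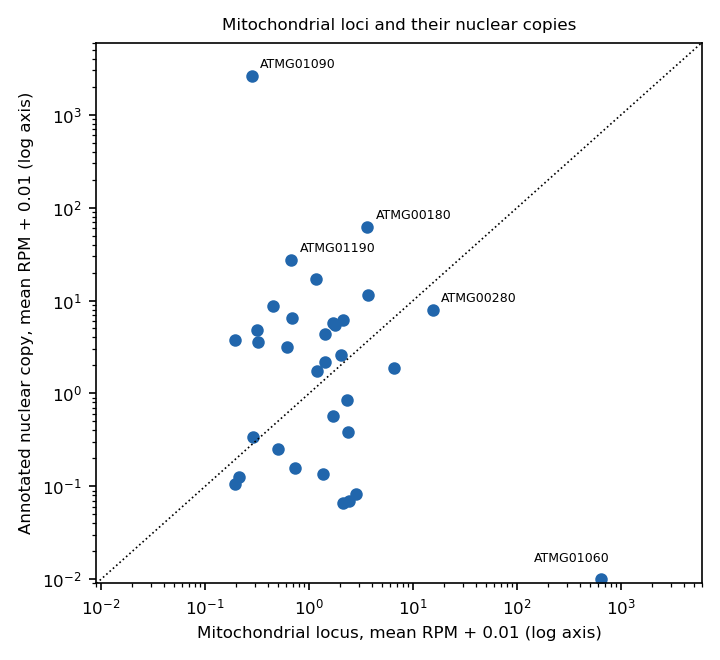
Mean RPM over 12 libraries of a mitochondrial locus (horizontal) and of its annotated nuclear copy on chromosome 2 (vertical), both plus 0.01 on log axes, for 33 pairs, with the line of equal levels dotted. In 19 pairs the copy lies above the line, and the pairs of ATMG01090 and ATMG01060 are the extremes. The nuclear reads of the ATMG01090 pair are at a peak with a run of 47 bases of rrn18, so that point does not compare ATP synthase subunit 9 with its copy.

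No mitochondrial locus passed the test between genotypes. Of the 94 loci, 65 passed the filter and were tested by limma on log2(RPM + 1) among 20204 loci. In GFP-FIB1 against GFP, 0 of the 65 had an adjusted p under 0.05, beside 0.00495% of all loci, and 2 had an unadjusted p under 0.05, beside 3.12%. In CFP-FIB2 against GFP, 0 were called beside 0% of all loci, and 1 had an unadjusted p under 0.05 beside 2.08%. In GFP-FIB1 against CFP-FIB2, 0 were called beside 0%, and 0 had an unadjusted p under 0.05 beside 0.945%. With a term for the library sets, 0 of the 65 were called in each comparison, while 0.995%, 0.688% and 0% of all loci were. In that fit 5, 7 and 5 of the 65 had an unadjusted p under 0.05, beside 6.56%, 5.23% and 3.78% of all loci. Both comparisons with GFP share the same 4 control libraries.

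Across the 65 loci the median log2 fold change was 0.12 in GFP-FIB1 against GFP, with 37 above 0 and 28 below, beside 0.07 over all loci tested. In CFP-FIB2 against GFP it was -0.19, with 25 above 0, beside -0.08 over all loci, and the sign was the opposite with TMM scaling, at 0.06 beside 0.08. In GFP-FIB1 against CFP-FIB2 it was 0.25, with 42 above 0, beside 0.16, and 0.01 beside -0.04 with TMM scaling. TMM thus moved the median of all loci by more than 0.1 in the 2 comparisons with CFP-FIB2, whose replicate 4 had a TMM library size of 0.347 times its reads in peaks. The 100 chloroplast loci tested had medians of 0.21, -0.34 and 0.47 in the same order, and 0.20, -0.09 and 0.17 with TMM scaling.

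**Figure D5:**
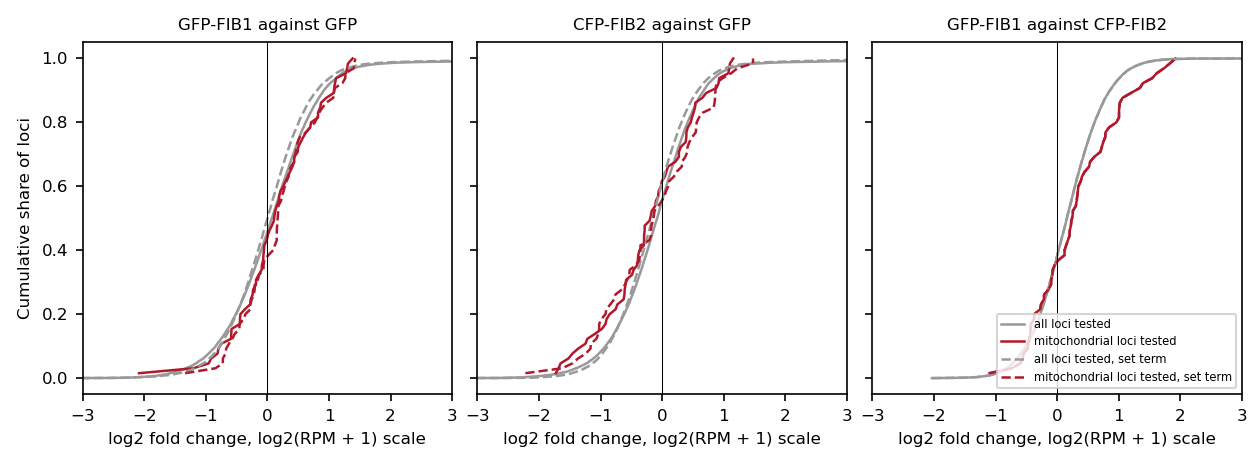
Cumulative share of loci by log2 fold change on the log2(RPM + 1) scale, for the 65 mitochondrial loci tested (red) and all 20204 loci tested (grey) in each comparison, fitted by genotype alone (solid) and with a term for the library sets (dashed). The axis ends at -3 and 3. The red and grey curves run close together near 0, where mitochondrial medians of 0.12, -0.19 and 0.25 lie beside 0.07, -0.08 and 0.16.

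The extremes of each comparison are given with their fitted values, none of which passed. In GFP-FIB1 against GFP the highest were ATMG00990 at 1.38 (SE 0.66), ATMG00810 at 1.31 (SE 0.56) and ATMG00100 at 1.29 (SE 1.295). ATMG00810, which has no product in the sources used here, had 0, 0.628, 1.35 and 0 RPM in GFP, 2.38, 3.88, 1.86 and 2.06 RPM in GFP-FIB1, and 0, 1.06, 3.54 and 0.779 RPM in CFP-FIB2. All GFP-FIB1 libraries of ATMG00810 lay above all GFP libraries. This was so for 1 of the 65 mitochondrial loci and for 1.22% of all loci (0 of the 65 and 0.733% lay below). The unadjusted limma p of ATMG00810 was 0.0282 (adjusted 1.00). ATMG00810 and ATMG00990 met the filter of 1.29 RPM in 4 libraries only with their GFP-FIB1 libraries counted. Their high values in this comparison were thus favoured by the filter and are a description only. The lowest were ATMG00580 at -2.08 (SE 1.76), ATMG00250 at -1.20 (SE 1.13) and ATMG00060 at -0.95 (SE 0.80). With 1 library left out, ATMG00580 ranged from -3.42 (without GFP replicate 3) to -0.88 (without GFP replicate 1) and ATMG00100 from 0.40 (without GFP-FIB1 replicate 1) to 2.05 (without GFP-FIB1 replicate 2). ATMG00250 ranged from -1.82 to -0.73 and ATMG00060 from -1.57 to -0.62. With the term for library sets ATMG00580 was at -0.45 (SE 0.77).

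In CFP-FIB2 against GFP the highest were ATMG01275 at 1.15 (SE 0.75), ATMG00590 at 1.099 (SE 0.58) and ATMG00160 at 1.08 (SE 1.34), and the lowest were ATMG00950 at -1.73 (SE 1.07), ATMG09740 at -1.68 (SE 0.96) and ATMG00230 at -1.65 (SE 1.35). One of the 65 loci, ATMG01280, had CFP-FIB2 libraries that all lay above those of GFP, beside 0.554% of all loci, and 0 lay below, beside 0.599%. ATMG00160 rested on replicate 2, since its CFP-FIB2 values were 16.5, 150.3, 5.94 and 0 RPM and its fold change without that replicate was -0.15. With 1 library left out, ATMG00230 ranged from -2.95 to -0.75, ATMG00950 from -2.42 to -1.097, ATMG00590 from 0.68 to 1.49 and ATMG01275 from 0.65 to 1.67. ATMG00590 and ATMG01275 met the filter on low values only with their CFP-FIB2 libraries counted, so their high values here are a description only. ATMG09740 had 9.79, 7.33, 2.36 and 24.1 RPM in GFP, 3.58, 1.80, 19.3 and 18.7 RPM in GFP-FIB1, and 0, 0, 12.9 and 4.13 RPM in CFP-FIB2. Within each set its CFP-FIB2 values lay below the GFP values, and with the term for library sets its log2 fold change was -2.22 (SE 0.68, limma unadjusted p = 0.00108, adjusted p = 0.126).

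In GFP-FIB1 against CFP-FIB2 the highest were ATMG00100 at 1.92 (SE 1.295), ATMG09510 at 1.83 (SE 1.12) and ATMG00950 at 1.73 (SE 1.07), and the lowest were ATMG01280 at -1.099 (SE 0.61), ATMG00640 at -0.74 (SE 0.93) and ATMG00480 at -0.60 (SE 0.71). Leaving out 1 library moved ATMG00640 to between -1.60 (without GFP-FIB1 replicate 2) and -0.026 (without CFP-FIB2 replicate 2), and ATMG00480 to between -1.13 and -0.14, when replicate 1 or replicate 4 of GFP-FIB1 was left out. ATMG00100 ranged from 1.03 to 2.77 and ATMG00950 from 0.86 to 2.38. No mitochondrial locus had fully separated libraries in that comparison, in either direction, beside 0.599% of all loci higher and 0.0891% lower. Only loci paired with a product were given a role. By role, positive values in GFP-FIB1 against GFP were found for 3 of 3 complex I loci (median 1.08), 2 of 2 of complex III (0.52), 0 of 2 of complex IV (-0.38), 2 of 3 of cytochrome c biogenesis (0.50), and for neither the ATP synthase locus (-0.18) nor the ribosomal protein locus (-0.09) that was tested, beside 54.2% of all loci. In CFP-FIB2 against GFP they were found for 3 of 3 complex I loci (median 0.38), 1 of 2 of complex III (0.50), 1 of 2 of complex IV (-0.23), 2 of 3 of cytochrome c biogenesis (0.71) and the ATP synthase locus (0.42), but not the ribosomal protein locus (-0.49), beside 44.2% of all loci. None of these loci passed in either comparison. ATMG00590 and ATMG00900 reached the 1.29 RPM of the filter in no GFP library. ATMG00220, ATMG00960, ATMG00990 and ATMG01275 reached it in 1 GFP library each. These loci met the filter through the fibrillarin libraries, so their signs against GFP, and the counts that hold them, are a description only. The 47 tested loci without a paired product were given no role, so other loci of the same complexes may be among them. Of those 47, 26 had positive values in GFP-FIB1 against GFP (median 0.11) and 14 in CFP-FIB2 against GFP (median -0.29).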

How the data were processed

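The files are peak lists, 1 per library, in which the authors gave each peak its position, strand, a name and a p-value; the deposited p-values are all under 0.05. The name, an entry of another kind, joins a locus, a peak number and a last number that was read as the number of reads in the peak. The files do not say what that number is; within a library its Spearman correlation with the deposited p-value was -0.995 to -0.973. Among tools, the notes on processing list DESeq2 alone, without a version. How reads were aligned, how peaks were called and on which build is not given in the sources used here.

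Reads were summed per locus and scaled to 1000000 reads in peaks of the library (RPM). Of 35566 loci, 20204 were tested, those with at least 1.29 RPM in 4 libraries (10 reads at the median depth) and 15 reads in all. Tests used limma 3.58.1 (R 4.3.3) on log2(RPM + 1) over all 12 libraries with genotype as the only term, Benjamini-Hochberg adjusted over all loci; the threshold was 0.05. The fit was also run on simulated data, which held no library sets and so cannot show how the test behaves with the sets found here. Library measures used two-sided exact permutation tests (Python 3.11.15, scipy 1.17.1). P-values measure only the spread between these libraries, and intervals cover counting error only. Library sets A, B and C were taken from correlations, since the labels give none.

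Loci, lists and tests were chosen with earlier results of these data known. Named loci are the 12 with the highest mean RPM, the 3 highest and 3 lowest fold changes per comparison, loci whose genotypes did not overlap, loci at the edge of the rule, and loci with a role in the annotation. Levels per length use the length covered by peaks. RefSeq TAIR10.1 supplied sequences; 99.9% of 624188 nuclear gene-named peaks lay inside their RefSeq locus, while its mitochondrial sequence has another layout, so only chromosome 2 coordinates were used. Same-numbered libraries of GFP-FIB1 and CFP-FIB2 deviated together (correlation 0.38 to 0.55 over tested loci); those of GFP and the fibrillarin genotypes did not all do so (-0.24 to 0.58). No 2 libraries of a genotype agreed within sampling noise.

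Alternatives were other scalings and pseudocounts, no filter, stricter peaks, overlaps counted once, a term for the library sets, a replicate block, each library left out and, chosen after the data were seen, reads of the nuclear copies added.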

Additional observations from a re-analysis of the deposited data

Results flagged for a closer look

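In 22 of 87 groups of 4 libraries 1 library stood far from the other 3. For normally distributed values, chance alone meets the test used in about 1 group of 20. The libraries that stood apart came from sets A, B and C, and the part of the sets was not tested. In GFP the high values were 17206 RPM at ATMG00020 and 594 RPM at ATMG00700, both in replicate 4, 349 RPM at ATMG00380 in replicate 3, and 2.01 RPM at ATMG01275 in replicate 4. In GFP-FIB1 replicate 1 they were 853 RPM at ATMG00100, 78.7 RPM at ATMG00230, 60.8 RPM at ATMG00250, 254 RPM at ATMG00800, 59.4 RPM at ATMG00950, 2881 RPM at ATMG01060 and 1027 RPM at ATMG01070. Other GFP-FIB1 values that stood apart, all in replicate 2 of set B, were 138 RPM at ATMG00160, 4.26 RPM at ATMG00590 and 22.1 RPM at ATMG00640. In CFP-FIB2 replicate 3 they were the mitochondrial share of 2.94%, 11898 RPM at ATMG00020, 15227 RPM at ATMG01390 and 56.4 RPM at ATMG09510. In CFP-FIB2 replicate 2, also of set B, they were 150.3 RPM at ATMG00160, 27.7 RPM at ATMG00640 and 6.83 RPM at ATMG01280. In CFP-FIB2 replicate 1 the value was 56.8 RPM at ATMG00230.

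Mitochondrial peaks between genes were no part of the comparisons. The region chrM:364840-365129 on the plus strand had 50591 RPM in GFP-FIB1 replicate 1, 7082 RPM in GFP-FIB1 replicate 2 and 102669 RPM in CFP-FIB2 replicate 1, above the highest GFP value of 5498 RPM. The other 5 fibrillarin libraries lay below that value.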

How the results depend on the processing

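The count of mitochondrial loci called was 0 under each alternative run, with every library left out in turn and with limma in each fit. With intergenic mitochondrial peaks included, CFP-FIB2 minus GFP in the share of reads turned from -0.841 to 1.46 percentage points, while GFP-FIB1 minus GFP went from 0.416 to 1.63 and GFP-FIB1 minus CFP-FIB2 from 1.26 to 0.169. The intergenic share was 10.6% in CFP-FIB2 replicate 1, 5.54% in GFP-FIB1 replicate 1 and at most 0.948% in any other library. Within library sets, GFP-FIB1 minus GFP turned to -0.0232 percentage points of reads, -0.333 loci and -154 reads per peak. Over all loci, calls in GFP-FIB1 against GFP numbered 1, and 3 with a pseudocount of 0.5, 0 with 5, 0 with overlapping peaks counted once and 201 with the set term; leaving out a library gave 0 to 104, the latter without GFP-FIB1 replicate 1. Calls in CFP-FIB2 against GFP numbered 0, and 1 with a pseudocount of 0.5, 139 with the set term and 0 to 1 with a library left out. With the replicate block, calls over all loci were 182, 117 and 0 in the 3 comparisons, the first 2 of which share only replicate numbers; in the third, where numbers paired the libraries, the block changed no call.

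Leaving out 1 library gave, for GFP-FIB1 minus GFP, -0.190 to 1.02 percentage points of reads, -2.08 to 7.25 loci, -540.2 to 157 nt and -92.6 to 502 reads per peak. For CFP-FIB2 minus GFP it gave -1.36 to -0.238 percentage points, -1.33 to 10 loci, -291 to 319 nt and -305 to 227 reads per peak. For GFP-FIB1 minus CFP-FIB2 it gave 0.651 to 1.78 percentage points, -7.75 to 3.58 loci, -590.0 to 178 nt and 39.1 to 448 reads per peak. For the share, the lowest exact permutation p was 0.0571 in CFP-FIB2 against GFP and also in GFP-FIB1 against CFP-FIB2. The median log2 fold change of the loci tested in GFP-FIB1 against CFP-FIB2 ranged from -0.02 to 0.43. Single log2 fold changes that turned were ATMG01390 in GFP-FIB1 against GFP (-0.062 with the set term, -0.18 to 0.50 with a library left out), ATMG00020 in the same comparison (-0.0075 to 0.88), ATMG00160 in CFP-FIB2 against GFP (-0.15 to 2.27) and ATMG00590 there (-0.52 with copy reads added). The cause was not tested.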
